A study of Mus musculus with 7 samples.

Results

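Amino acid transporters of the solute carrier (Slc) superfamily were followed in antigen-activated mouse CD8 T cells with and without the kinase Lck. The set held every non-control probe whose gene name began with Slc1a, Slc3a, Slc6a, Slc7a, Slc36a, Slc38a or Slc43a and a number, which gave 83 probes of 63 genes among the 55681 probes of the array. The 3 Lck-/- samples were OT-1 heterozygous, Rag-/- and Lck-/- lymph node CD8 T cells from mice carrying a knocked-in Lck that needs doxycycline, which had been absent from the diet for 7 days. The 4 WT samples were OT-1 heterozygous, Rag-/- CD8 T cells from lymph node, for which no doxycycline feeding or withdrawal is given, so effects of the feeding or of the inducible construct and of losing Lck cannot be told apart. All 7 samples were activated in culture with 100 nM of the ovalbumin peptide SIINFEKL, which the OT-1 T cell receptor recognises, and were taken at 24 h. The series states that they are biological replicates; the ages of the mice and the driver of the inducible Lck are not given in the sources used here.

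Amino acid transporters move amino acids across the plasma membrane or the lysosomal membrane, and each family has its own substrates and coupling ions. Slc7a5 pairs with the heavy chain Slc3a2 to form the exchanger LAT1, which takes up leucine and other large neutral amino acids in return for glutamine, while Slc1a5 and the Slc38 carriers bring in glutamine and other small neutral amino acids. T cells raise such transporters on activation through the antigen receptor, and leucine and arginine supply is read by the growth kinase complex mTORC1 at the lysosome. Lck phosphorylates the CD3 and zeta chains of the engaged receptor.

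The sequences shown are those of the probes behind the LAT1 subunits and behind the members with the smallest p-values, because each result on them rests on 1 short stretch of RNA. Each is the first 30 of 60 probe bases as the scanner files give them, with mm9 coordinates of the whole probe, and no base is in capitals.
Slc7a5, probe A_55_P1973941, chr8:124405136-124405195, minus strand: gtggttataatgtcttttactattgtatta
Slc7a5, probe A_55_P2017972, chr8:124430996-124431055, minus strand: tagtcttcgccacctacttgctcaagccgg
Slc3a2, probe A_51_P472901, chr19:8782189-8782248, minus strand: gagggcttgctgttacagttcccctttgtg
Slc43a1, probe A_55_P2019690, chr2:84703578-84703637, plus strand: tgcacacatatatgttacgcacatgcatat
Slc6a19, probe A_55_P1997595, chr13:73818718-73818777, minus strand: ctgaagagggcatatttatgcacacatgta
Slc6a13, probe A_51_P438083, chr6:121287597-121287656, plus strand: ggtccacacattgtgacgtgcccgaatcaa
Which exon each probe matches was not analysed here.

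Values are log2 of the processed spot signal minus that array's 75th percentile, so 0 is the 75th percentile of the array and a difference of 1 is a doubling of signal. Values of different probes are not compared with each other, since each probe has its own response. The share of spots well above background was 50.64% to 61.06% on Lck-/- arrays and 46.57% to 56.18% on WT arrays. The only Lck probe read 8.02, 6.21 and 6.17 on Lck-/- arrays 1 to 3, against 7.44, 7.67, 7.36 and 6.04 on WT arrays 1 to 4. The array labelled Lck-/- 1 was thus the highest of all and the array labelled WT 4 the lowest, against their labels, so both are doubted and results are also given without them. Whether this probe lies in the deleted sequence is not given, so it checks the labels only if it does. Every direction below is between arrays as labelled. The CD8 T cell markers Cd8a, Cd8b1, Cd3d, Cd3e and Cd3g were all tested, and their mean lay between 5.35 and 6.24 over the 7 arrays. The lowest, 5.35, was on WT 3, where the Cd3e spot was left out as an outlier. Cd3e read 6.23 to 6.83 on the other WT arrays. The mean lay between 5.82 and 6.24 on the arrays other than WT 3. The mean of 10 NK cell markers was -2.31, -0.65 and -2.18 on Lck-/- arrays and -3.67, -3.01, -3.96 and -1.17 on WT arrays. On WT 3 the Fcer1g spot was left out as an outlier, so that mean is not over the same markers. Fcer1g read -0.36, 0.73 and 1.17 on WT arrays 1, 2 and 4. The mean of 19 mitosis genes was 2.36, 1.49 and 1.44 on Lck-/- arrays and 3.73, 2.29, 3.32 and 2.21 on WT arrays. For the same reason the WT 3 mean lacks Ccnb1. Both means overlapped between groups, but not without the 2 doubted arrays. All 10 NK markers were higher in the Lck-/- mean (median difference 1.14), none at an unadjusted limma p under 0.05. All 19 mitosis genes were lower (median difference -1.04), 13 of them at such a p, where the share over all probes was 1.49%. None was called at an adjusted p under 0.05. Of the other marker lists, 2 of 5 B cell, 7 of 9 myeloid and dendritic, 3 of 6 stromal and endothelial and 2 of 3 erythroid genes could be tested. Higher in the Lck-/- mean were 5 of 5 CD8 T, 2 of 2 B cell and 6 of 7 myeloid and dendritic genes. So were 3 of 3 stromal and endothelial and 1 of 2 erythroid genes, against 62.1% of all probes. None of them was called at an adjusted p under 0.05. Those not tested included Ms4a1, Pax5, Xcr1, Clec9a, Col1a1, Pdgfra and Cdh5.

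Expression was divided within the families. Of the 63 genes, 26 had a probe well above background on all 7 arrays, 7 on 3 to 6 arrays, 5 on 1 or 2 arrays and 25 on none. The 33 genes reaching at least 3 arrays were tested, and they were read by 43 of the 83 probes. All 3 Slc43 genes, 7 of 11 Slc38 genes and 9 of 16 Slc7 genes were among them, against 8 of 20 Slc6 genes, 3 of 7 Slc1 genes, 2 of 4 Slc36 genes and 1 of 2 Slc3 genes. Slc1a4 and Slc7a1 fell short of 7 arrays only through a spot flagged as an outlier on 1 array.

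**Figure D1:**
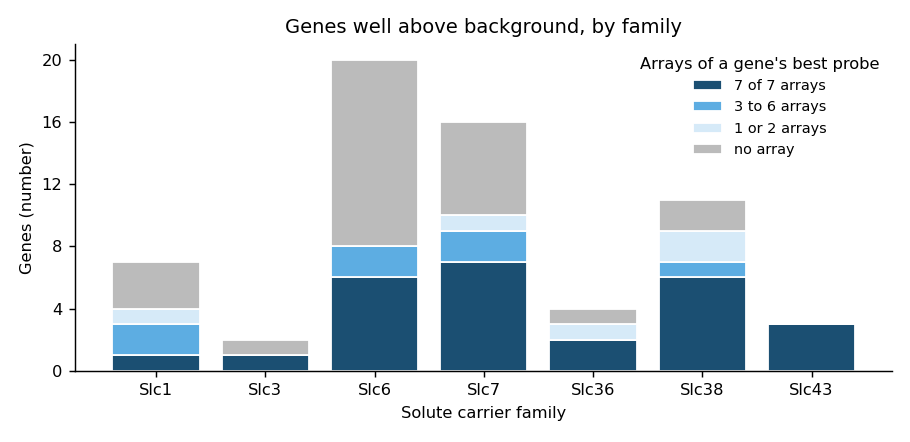
Number of genes in each Slc family (x axis) by the number of arrays, of 7, on which the gene's best probe was well above background (stacked colours). All 3 Slc43 genes were above background on 7 of 7 arrays, while 12 of 20 Slc6 genes were above it on no array.

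The genes above background on no array included carriers best known from nerve, kidney and gut. Among them were the glutamate carriers Slc1a1, Slc1a3 and Slc1a6, and the monoamine carriers Slc6a2, Slc6a3 and Slc6a4. The glycine carrier Slc6a5 and the GABA and betaine carriers Slc6a11 and Slc6a12 were also on the list, as were Slc6a7, Slc6a14, Slc6a15, Slc6a17, Slc6a18 and Slc6a20b. From the other families the list held Slc3a1, the kidney heavy chain, with its light chain Slc7a9, and also Slc7a10, Slc7a12, Slc7a13, Slc7a14, Slc7a15, Slc36a2, Slc38a5 and Slc38a8. The 5 genes on 1 or 2 arrays were Slc1a2, Slc7a8, Slc36a3, Slc38a3 and Slc38a4. Slc7a8, the LAT2 light chain and a further partner of Slc3a2, was printed as 10 spots. It was well above background on 2 of 3 Lck-/- arrays and 0 of 4 WT arrays. It read -4.70, -5.24 and -4.60 on Lck-/- arrays, against -6.06, -5.09, -5.16 and -5.28 on WT arrays. The SD between its spots on 1 array was 0.31 to 0.63, and the groups overlapped. No fold is given for it, as its Lck-/- mean did not exceed the detection floor of the WT arrays.

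Probes of neighbouring members differed in whether they were detected. Slc6a19 was well above background on all 7 arrays, whereas neither probe of Slc6a18, of which 1 lies 19.4 kb away on mm9 chromosome 13, was on any. In the Slc36 group on chromosome 11, Slc36a1 was above background on 7 arrays and Slc36a2, 74 kb away, on none. Slc6a20a was above background on 7 arrays and its neighbour Slc6a20b, 41.8 kb away on chromosome 9, on none. By contrast, the glutamine carriers Slc38a1 and Slc38a2, 116 kb apart on chromosome 15, were both above background on all 7, as were Slc43a1 and Slc43a3, 94.4 kb apart on chromosome 2.

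No transporter gene passed the threshold between Lck-/- and WT arrays. Of 33 genes tested with limma, 0 were called at an adjusted p under 0.05, and 0 of all 29202 probes tested were (0%). At an unadjusted p under 0.05 there were 3 of 43 transporter probes, or 6.98%, against 1994 of all probes, or 6.83%. The share among transporter probes was therefore near that of the array as a whole. Of those, 2 transporter probes were higher in Lck-/- arrays, where the share over all probes was 5.34%, and 1 was lower, where it was 1.49%. The median difference, Lck-/- minus WT, was 0.06 over the 33 genes and 0.07 over all probes tested, and 19 genes had a positive and 14 a negative difference. By probe, 26 of 43 transporter probes, or 60.5%, had a positive difference, against 62.1% of all probes. Differences ran from -0.64 to 1.65. In bulk RNA, fewer cells of a type and less RNA per cell cannot be told apart.

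**Figure D2:**
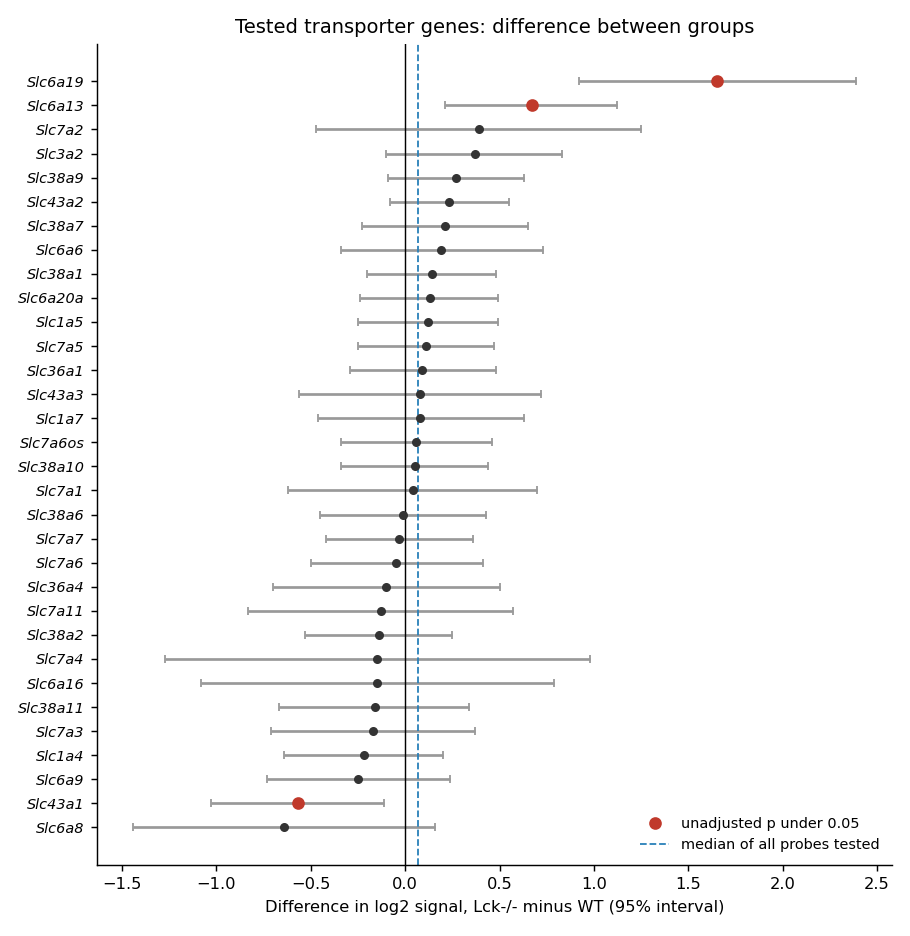
Difference in log2 signal, Lck-/- minus WT (x axis, with 95% limma interval), for the tested genes named on the y axis, with the median of all probes as a dashed line. Slc6a19, Slc6a13 and Slc43a1 (red) have intervals that leave out 0, and the others cross it.

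The choice of reference moved the signs of small differences. With each array's median in place of its 75th percentile, the median difference was -0.13 over all probes and -0.14 over the transporter genes. Of all probes at an unadjusted p under 0.05, 78.1% were higher in Lck-/- arrays with the 75th percentile. That share was 61.9% after quantile normalization, 60.9% after normexp background correction followed by quantile normalization, 53.3% in the deposited values and 30.9% with the median. Without both doubted arrays 0 of 33 transporter genes passed, while 47 of all probes did (0.161%). At an unadjusted p under 0.05 there were then 5 transporter genes, or 15.2% of those tested, against 9.1% of all probes. These 2 shares are in unlike units, genes and probes. With all 7 arrays the share of transporter genes was 9.09%, and that of transporter probes 6.98%. The share of transporter probes without both doubted arrays was not counted. The residual SD between arrays had a median of 0.25 over the transporter genes and 0.27 over all probes tested. On simulated arrays with these means and SDs, 34% of probes changed by 1 on the log2 scale were called and 74% of those changed by 2. Each size of change was given to 100 of 29202 probes, and the shares called depend on that number. The simulated noise was independent between probes and arrays and every label was right, so these shares may not hold for the real arrays.

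Both subunits of LAT1 were well above background on all 7 arrays. Slc7a5, the light chain that carries leucine, read 4.08, 4.26 and 3.90 on Lck-/- arrays, against 4.15, 3.82, 3.93 and 3.97 on WT arrays. The groups overlapped, and the difference was 0.11 (SE 0.16, 95% interval -0.25 to 0.47, limma adjusted p = 0.937). The interval leaves out a halving or doubling of this signal. Slc3a2, the heavy chain that brings the complex to the cell surface, read 6.93, 6.50 and 6.72 on Lck-/- arrays, against 6.36, 6.75, 6.22 and 6.07 on WT arrays. Only WT 2 lay among the Lck-/- values, and the difference was 0.37 (SE 0.20, 95% interval -0.10 to 0.83, limma adjusted p = 0.783). It was 0.16 without both doubted arrays and 0.16 with the array median as reference. The second Slc7a5 probe, 25.9 kb from the first, gave a larger difference with more spread. It read 1.49, 0.55 and 1.17 on Lck-/- arrays, against 0.14, 0.86, 0.22 and 0.73 on WT arrays. Its difference was 0.58 (SE 0.28, 95% interval -0.07 to 1.23, limma adjusted p = 0.75), with overlapping groups.

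**Figure D3:**
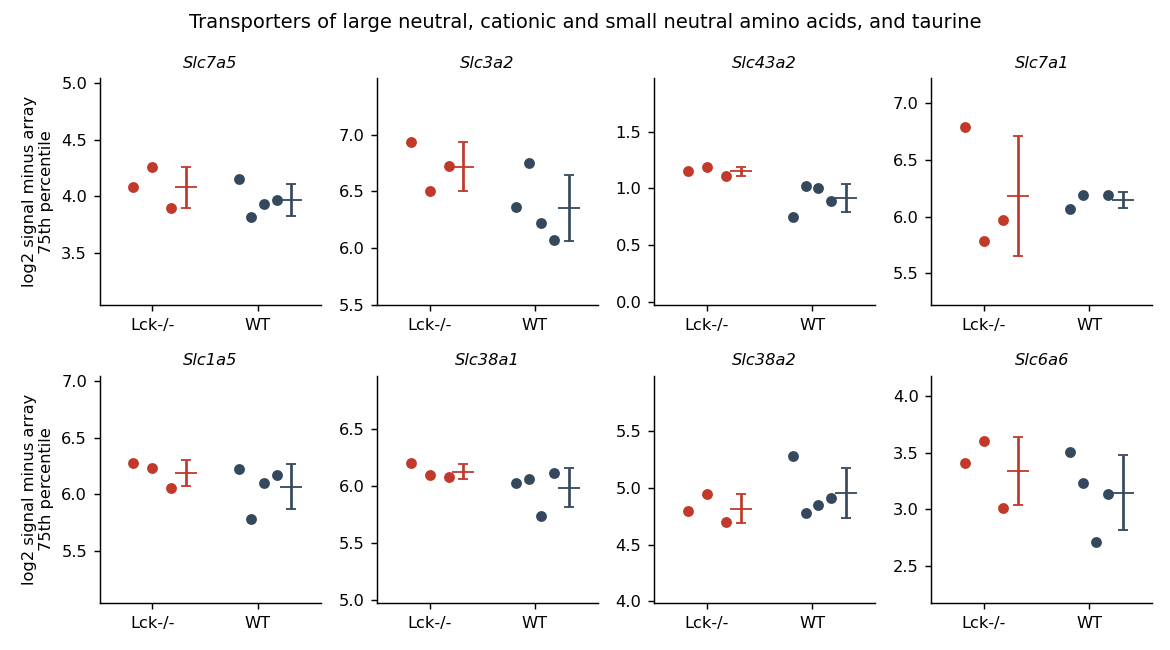
Signal of 8 transporter genes on each array (y axis, log2 signal minus the array's 75th percentile, each panel spanning 2 log2 units), with Lck-/- in red at the left and WT in dark blue at the right, and the mean ± SD beside the points. The groups overlap in every panel but that of Slc43a2, and Slc7a1 spreads most within Lck-/-.

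The Slc43 carriers, of which Slc43a1 and Slc43a2 let large neutral amino acids through without a heavy chain, had differences of both signs, none past the threshold. Slc43a1, or LAT3, read 0.93, 1.00 and 0.39 on Lck-/- arrays, against 1.47, 1.14, 1.52 and 1.24 on WT arrays. Every Lck-/- value lay below every WT value, which held for 1 of 43 transporter probes, or 2.33%, and for 1.71% of all probes. The difference was -0.57 (SE 0.20, 95% interval -1.03 to -0.11), which is 1.48-fold lower, and did not pass over all probes (limma adjusted p = 0.668). Without Lck-/- 3, the lowest array, it was -0.37, and without both doubted arrays -0.68. The mean of mitosis genes ran from 1.44 to 2.36 on Lck-/- arrays and from 2.21 to 3.73 on WT arrays, and its part in this difference was not tested. Slc43a2, or LAT4, read 1.15, 1.19 and 1.11 on Lck-/- arrays, against 0.75, 1.02, 1.00 and 0.89 on WT arrays. Groups with every Lck-/- value above every WT value were found for 3 of 43 transporter probes, or 6.98%, and for 5.79% of all probes. Its difference was 0.23 (SE 0.14, limma adjusted p = 0.801), or 0.03 with the array median as reference. Slc43a3, which carries purine bases rather than amino acids, averaged 2.81 ± 0.57 (SD, n = 3) on Lck-/- arrays and 2.72 ± 0.23 (SD, n = 4) on WT arrays. Its 3.41, 2.75 and 2.26 on Lck-/- arrays spanned the whole WT range of 2.44 to 3.00.

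The promoter of Slc43a1 is shown with that of Slc6a19, as the members with the smallest p-value in each direction. Both are from RefSeq on GRCm38.p6, 250 bases before to 50 after the gene's start, and capitals mark the E-box CACGTG, the motif bound by Myc and Max. The table held 45 of the 63 genes.
Slc43a1, chr2:84840073-84840372, plus strand: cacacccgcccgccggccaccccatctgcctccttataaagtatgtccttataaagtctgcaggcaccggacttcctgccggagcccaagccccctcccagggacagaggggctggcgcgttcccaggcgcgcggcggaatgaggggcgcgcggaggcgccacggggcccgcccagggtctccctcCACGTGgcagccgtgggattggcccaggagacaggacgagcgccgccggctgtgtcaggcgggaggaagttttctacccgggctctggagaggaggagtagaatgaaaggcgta
Slc6a19, chr13:73692587-73692886, minus strand: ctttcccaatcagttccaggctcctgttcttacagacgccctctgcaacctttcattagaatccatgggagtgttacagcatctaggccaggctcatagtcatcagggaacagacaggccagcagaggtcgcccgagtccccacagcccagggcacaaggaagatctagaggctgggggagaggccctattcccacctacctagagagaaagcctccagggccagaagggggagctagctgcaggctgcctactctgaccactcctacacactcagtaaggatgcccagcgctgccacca
The Slc43a1 window held 1 CACGTG, starting at position -64 from the gene's start. The Slc6a19 window held none, and neither held TGATGNAA, the core of the amino acid response element bound by Atf4. Over all 32851 promoters of the table, both strands searched, 7.15% held CACGTG and 3.97% held TGATGNAA. Of the 23 tested transporter genes in the table, Slc1a7, Slc36a1, Slc38a7, Slc43a1 and Slc6a16 held CACGTG, and Slc1a4, Slc7a11 and Slc7a7 held TGATGNAA. A gene was counted when any of its promoters held the motif, so these genes and the shares of promoters are in unlike units. No gene held both, and a match is a description of letters only.

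The tested cationic carriers Slc7a1, Slc7a2 and Slc7a3 had overlapping groups. Slc7a1, or CAT1, the arginine and lysine carrier of the plasma membrane, read 6.79, 5.79 and 5.97 on Lck-/- arrays, against 6.07, 6.19 and 6.19 on WT arrays 1, 2 and 4, the WT 3 spot having been left out as an outlier. The Lck-/- values lay on both sides of the WT values, and the difference was 0.04 (SE 0.28, 95% interval -0.62 to 0.70, limma adjusted p = 0.991). Without Lck-/- 1 it was -0.27. Slc7a3, or CAT3, had the same order among the Lck-/- arrays but not among the WT arrays, and was singled out after its values were seen. It read 4.98, 4.01 and 4.59 on Lck-/- arrays, against 4.75, 4.57, 4.87 and 4.59 on WT arrays. Slc7a2, an arginine carrier best known from liver and macrophages, was above background on 2 of 3 Lck-/- arrays and 1 of 4 WT arrays. It averaged -4.38 ± 0.60 (SD, n = 3) on Lck-/- arrays and -4.77 ± 0.56 (SD, n = 4) on WT arrays.

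The other light chains that join Slc3a2 had overlapping groups. Slc7a6, or y+LAT2, which exchanges arginine for neutral amino acids, read 1.04, 1.46 and 1.09 on Lck-/- arrays, against 1.48, 1.16, 0.91 and 1.43 on WT arrays. Its difference was -0.05 (SE 0.20, limma adjusted p = 0.984). Slc7a7, or y+LAT1, its close relative, averaged -1.37 ± 0.19 (SD, n = 3) on Lck-/- arrays and -1.33 ± 0.19 (SD, n = 4) on WT arrays. Slc7a11, or xCT, which imports cystine in exchange for glutamate, read -4.03, -3.66 and -3.31 on Lck-/- arrays, against -3.87, -3.95, -3.47 and -2.85 on WT arrays. The difference was -0.13 (SE 0.30, limma adjusted p = 0.967), and 0.28 without both doubted arrays. Slc7a6os entered through its name alone. It lies on the opposite strand next to Slc7a6, encodes no transporter, and differed by 0.06 (SE 0.17).

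The neutral amino acid exchangers of the Slc1 family were measured with little spread. Slc1a5, or ASCT2, a carrier of glutamine, serine and alanine, read 6.28, 6.23 and 6.06 on Lck-/- arrays, against 6.22, 5.78, 6.10 and 6.17 on WT arrays. The difference was 0.12 (SE 0.16, 95% interval -0.25 to 0.49, limma adjusted p = 0.928), and its second probe gave 0.08 (SE 0.16). With the array median as reference the first probe gave -0.08. Slc1a4, or ASCT1, which prefers serine and alanine, read 2.60, 2.69 and 2.97 on Lck-/- arrays, against 3.11, 2.97 and 2.82 on WT arrays 1, 2 and 4. The difference was -0.22 (SE 0.18, limma adjusted p = 0.862). Both genes had overlapping groups. Of the glutamate carriers, only Slc1a7 was tested, with a difference of 0.08 (SE 0.24).

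The Slc38 family holds both plasma membrane glutamine carriers and lysosomal carriers. Slc38a1, or SNAT1, read 6.20, 6.10 and 6.08 on Lck-/- arrays, against 6.03, 6.06, 5.74 and 6.12 on WT arrays, a difference of 0.14 (SE 0.15, 95% interval -0.20 to 0.48). Its other probes gave -0.07 (SE 0.22) and -0.16 (SE 0.21), so the sign depended on the probe. Slc38a2, or SNAT2, a system A carrier induced by amino acid shortage, read 4.80, 4.95 and 4.70 on Lck-/- arrays, against 5.28, 4.78, 4.85 and 4.91 on WT arrays. Its difference was -0.14 (SE 0.17, 95% interval -0.53 to 0.25, limma adjusted p = 0.923).

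Slc38a9, Slc38a7 and Slc36a1, which act at the lysosome, had small positive differences with overlapping groups. A positive difference was also found for 62.1% of all probes. With the array median as reference, Slc38a9 was 0.07, Slc38a7 was 0 and Slc36a1 was -0.11. Slc38a9, which reports lysosomal arginine to mTORC1, read -0.31, -0.31 and -0.72 on Lck-/- arrays, against -0.69, -0.71, -0.66 and -0.81 on WT arrays. Lck-/- 1 and Lck-/- 2 lay above all WT arrays and Lck-/- 3 did not, for a difference of 0.27 (SE 0.16, limma adjusted p = 0.797). Both other Slc38a9 probes were higher too in the mean, by 0.26 (SE 0.18) and 0.47 (SE 0.26), without passing. Slc38a7, which exports glutamine and asparagine from lysosomes, averaged -0.37 ± 0.11 (SD, n = 3) on Lck-/- arrays and -0.58 ± 0.29 (SD, n = 4) on WT arrays. Slc38a10 averaged 0.31 ± 0.07 (SD, n = 3) on Lck-/- arrays and 0.27 ± 0.24 (SD, n = 4) on WT arrays. Among the proton-coupled Slc36 carriers, Slc36a1, which carries small amino acids out of the lysosome, averaged -0.60 ± 0.22 (SD, n = 3) on Lck-/- arrays and -0.70 ± 0.16 (SD, n = 4) on WT arrays. Slc36a4 averaged -1.76 ± 0.50 (SD, n = 3) on Lck-/- arrays and -1.66 ± 0.26 (SD, n = 4) on WT arrays.

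The Slc6 family, sodium- and chloride-coupled carriers of neutral amino acids, neurotransmitters and osmolytes, held the largest differences in both directions among the tested genes. Slc6a19, or B0AT1, the neutral amino acid carrier of kidney and gut that is mutated in human Hartnup disorder, read -2.00, -1.55 and -0.92 on Lck-/- arrays. It read -3.34, -3.05, -3.59 and -2.59 on WT arrays, all below the lowest Lck-/- value. The difference was 1.65 (SE 0.32, 95% interval 0.92 to 2.39), or 3.15-fold, and had the smallest p-value of the tested genes. It did not pass over all 29202 probes (limma adjusted p = 0.638). It was 2.09 without both doubted arrays (adjusted p = 0.101) and 1.37 without Lck-/- 3, but 0.99 with the deposited values and 0.96 with normexp followed by quantile normalization, all of them not called. Of the WT arrays, the doubted WT 4 was the highest for both the NK marker mean and Slc6a19. Of the Lck-/- arrays, Lck-/- 2 had the highest NK marker mean and Lck-/- 3 the highest Slc6a19. Taking the NK marker mean, which lacked Fcer1g on WT 3, into the fit gave 1.35 (SE 0.34, limma adjusted p = 0.986). The part of NK cells in the Slc6a19 difference was not tested.

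Slc6a13, or GAT2, a carrier of GABA and taurine, read -3.12, -3.12 and -3.47 on Lck-/- arrays, against -4.16, -3.78, -4.11 and -3.57 on WT arrays. The groups did not overlap, though Lck-/- 3 and WT 4 were 0.10 apart, and WT 1 was not well above background. The difference was 0.67 (SE 0.20, 95% interval 0.21 to 1.12, limma adjusted p = 0.652). It was 0.72 without both doubted arrays, 0.44 with the NK marker covariate, 0.18 with normexp followed by quantile normalization and 0.15 with the deposited values, all of them not called.

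**Figure D4:**
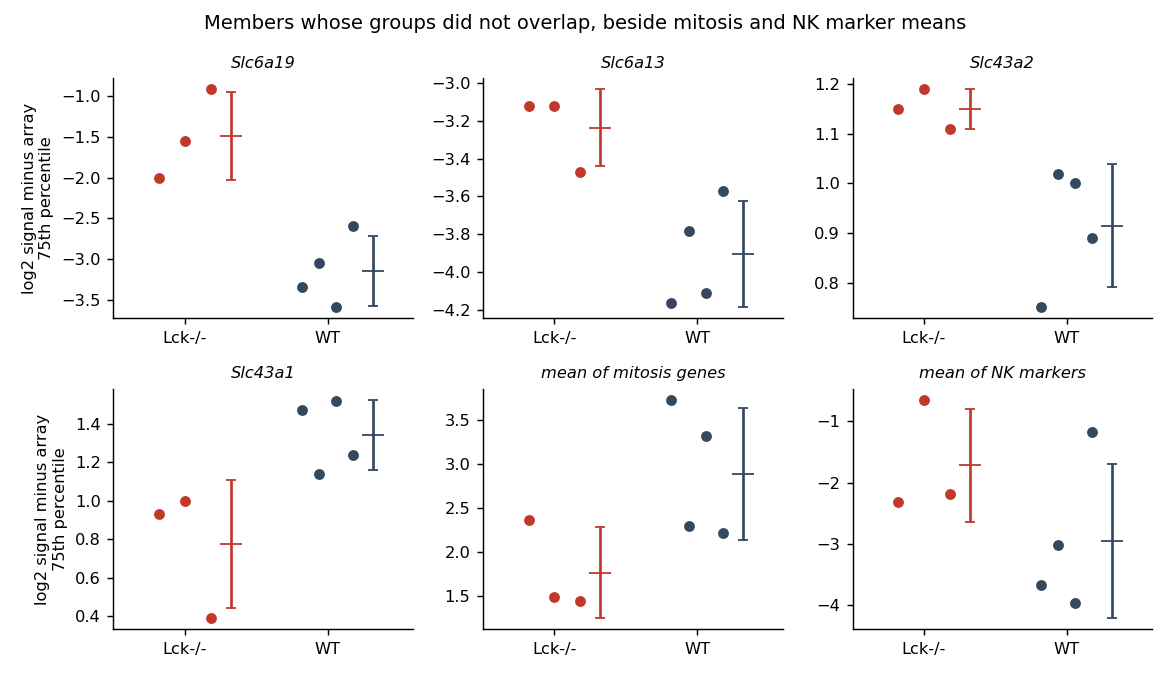
Signal on each array (y axis, log2 signal minus the array's 75th percentile, own scale per panel) of the 4 members whose groups did not overlap and, for comparison, of the means of the mitosis genes and NK markers, with Lck-/- in red at the left and WT in dark blue at the right and mean ± SD beside the points. Slc6a19, Slc6a13 and Slc43a2 are higher and Slc43a1 lower on every Lck-/- array, while the marker means overlap between groups over all 7 arrays. Without the doubted arrays Lck-/- 1 and WT 4, neither marker mean overlaps. On WT 3 the mitosis mean lacks Ccnb1 and the NK mean lacks Fcer1g.

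Carriers of osmolytes and of the energy store creatine were detected as well. Slc6a6, the taurine carrier, read 3.41, 3.60 and 3.01 on Lck-/- arrays, against 3.51, 3.23, 2.71 and 3.14 on WT arrays, a difference of 0.19 (SE 0.23). Slc6a8, the creatine carrier, read -3.18, -3.76 and -4.51 on Lck-/- arrays, against -3.39, -2.93, -2.76 and -3.64 on WT arrays. Its difference of -0.64 (SE 0.35, 95% interval -1.44 to 0.16) was the most negative of the tested genes and did not pass (limma adjusted p = 0.779). It was -0.29 without Lck-/- 3 and -1.11 without both doubted arrays. With the deposited values it was -0.35, and with normexp followed by quantile normalization -0.31. Slc43a1 was more negative in both, at -0.51 and -0.53. Slc6a9, or GlyT1, the glycine carrier, singled out after its values were seen, read 4.40 and 4.95 on Lck-/- arrays 2 and 3, against 4.98, 4.80, 5.02 and 4.89 on WT arrays. Its second probe, offset by 9 bases from the first, gave -0.14 (SE 0.17) beside -0.25 (SE 0.20).

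Where a gene had several tested probes, their agreement varied. Of 8 such genes, 5 had differences of 1 sign and 3 of mixed sign. The spread between probes of a gene ran from 0.04 for Slc1a5 to 0.47 for Slc7a5. Slc38a6, singled out after its values were seen, gave -0.01 (SE 0.19) and 0.35 (SE 0.20) with probes 39.6 kb apart.

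**Figure D5:**
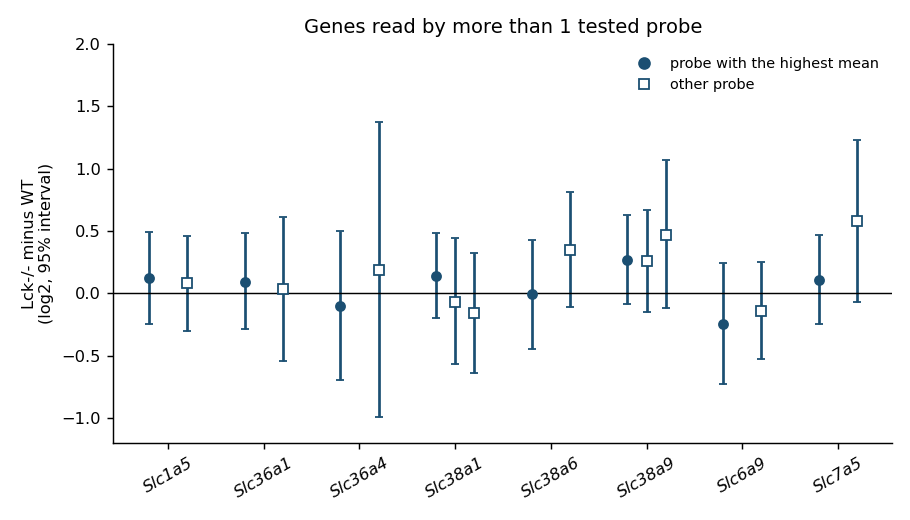
Difference, Lck-/- minus WT, with 95% limma interval (y axis, log2) for every tested probe of the 8 genes read by more than 1 tested probe (x axis). Filled points are the probe with the highest mean and open squares the others; the Slc7a5 and Slc38a9 probes are all above 0, and those of Slc38a1 lie on both sides.

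Other genes of amino acid handling were taken as lists, and none of their members passed the threshold. Single genes of these lists other than Myc and Atf4 were chosen after their values were seen, as those with an unadjusted p under 0.05. Of all probes tested, 6.83% had such a p. Of 16 further carriers, mostly of mitochondria and lysosomes, 11 had positive and 5 negative differences, with a median of 0.04. They were listed as amino acid carriers, though Slc17a9 and Slc33a1 are not known to move amino acids. The aspartate and glutamate carrier Slc25a13 had the only unadjusted p under 0.05, at -0.49 (SE 0.21). Of 29 amino acid sensors of the mTORC1 and GCN2 pathways, 16 had positive and 13 negative differences, with a median of 0.03. An unadjusted p under 0.05 was found for 2 of the 29, both higher, where the share over all probes was 5.34%. The arginine sensor gene Gatsl3, also called Castor1, read -1.96, -2.13 and -1.76 on Lck-/- arrays, against -2.40, -3.08, -2.96 and -2.91 on WT arrays. The groups did not overlap, with Lck-/- higher, which held for 5.79% of all probes. The Gatsl3 difference was 0.89 (SE 0.20, limma adjusted p = 0.638). Bmt2, which senses S-adenosylmethionine, differed by 0.38 (SE 0.14, limma adjusted p = 0.677).

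Of 30 enzymes that make or use amino acids, 14 had positive and 16 negative differences, with a median of -0.05. Prodh, the first enzyme of proline breakdown, was the only one with an unadjusted p under 0.05, at -0.39 (SE 0.14). Of 8 factors known to act on transporter genes, 5 had positive and 3 negative differences, with a median of 0.08. Myc, which drives Slc7a5 and other carriers in activated T cells, differed by 0.22 (SE 0.20), and Atf4, the amino acid shortage factor, by 0.10 (SE 0.19). Ddit3, a target of Atf4, read 1.14, 1.27 and 1.23 on Lck-/- arrays, against 0.54, 0.12, 0.58 and 0.86 on WT arrays. Its groups did not overlap, with Lck-/- higher, which held for 5.79% of all probes. Its difference of 0.69 (SE 0.19) did not pass (limma adjusted p = 0.652).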

How the data were processed

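Gene expression was measured on 1-colour microarrays, 1 per sample. Per the file headers, Agilent Feature Extraction 10.7.3.1 produced the deposited scanner files, which place probes on mm9 and give spot intensity, background-subtracted and detrended within each array. Per the labels' protocols, 50 ng of RNA with an integrity number above 8 was labelled with Cy3. The deposited value table holds log2 values of unstated between-array normalization and was used as an alternative only. It correlated at 0.9994 to 0.9998 with log2 median spot signal, and its medians ran from 6.63 to 6.67. The submitters' processing notes name limma.

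The log2 processed signal was reduced by each array's 75th percentile over 59305 non-control spots, outlier-flagged spots were left out, and repeat spots were averaged. Above background meant that at least 50% of a probe's spots were, and a probe entered the fit when this held on at least 3 of 7 arrays. This kept 29202 of 55681 probes. Groups were compared with limma 3.58.1 in R 4.3.3 (two-sided, Benjamini-Hochberg over all probes, threshold 0.05). Of several probes of a gene, the brightest on average stands in the text unless another is named. The number of arrays limits the precision. The procedure was tested on simulated data, in which 7 unchanged probes were called.

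The members, the lists and the rule for naming genes were chosen with earlier results of these data known. The rule listed transporters by their known roles, of which only Slc7a8 could not be tested, and added any further member with an unadjusted p under 0.05, which was Slc6a13. Members left over are summarised or said to have been singled out. The accessions of 61 of 63 genes matched the GRCm38.p6 gene table, all under the same symbol. All arrays shared 1 slide and 1 scan time. Deviations from the group means correlated at 0.04, 0.00 and 0.02 between arrays sharing a title number, so the numbers were not taken as pairs. The alternatives were other normalizations, filters, probe summaries, blocks and weights, and leaving out each array. Leaving out both doubted arrays and an NK marker covariate were added with the data known. The values of 1 member and the names of some markers are not reported here.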

Additional observations from a re-analysis of the deposited data

Results flagged for a closer look

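Among the 31 transporter genes with a value on all 4 WT arrays, 1 had a WT array far from the others. Slc6a16 read -1.08 on WT 3, against -2.65, -2.50 and -2.55 on the other WT arrays and -1.93, -2.68 and -2.43 on Lck-/- arrays. The gap was 0.909 of the range, above Dixon's 95% critical value for 4 samples. Chance flags about 1 in 20 groups. WT 3 also had the most spots marked as non-uniform, 1403, against 1 to 422 on Lck-/- arrays and 3 to 31 on the other WT arrays; their part in this value was not tested.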

How the results depend on the processing

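The count of transporter genes past the threshold was 0 under all 22 alternatives. The count of all probes past it was 7 without WT 1 (0 to 7 over the single arrays left out) and 47 without both doubted arrays, and 0 otherwise. Probes at an unadjusted p under 0.05 numbered 1994, against 1326 with the NK covariate. The median difference of the transporter genes was -0.14 with the array median as reference and -0.02 to 0.14 otherwise. Of 502 comparisons of a named gene with an alternative, 453 kept direction and side of the threshold and 49 changed sign, and 11 of 23 named genes never changed sign, among them Slc6a19, Slc43a1 and Slc3a2. With the array median as reference, Slc1a5 was -0.08, Slc36a1 -0.11, Slc38a1 -0.07, Slc38a10 -0.16, Slc43a3 -0.12, Slc6a6 -0.01, Slc7a1 -0.15 and Slc7a5 -0.09. Slc7a1 was -0.07 after quantile normalization, -0.08 after normexp followed by quantile normalization, -0.01 in the deposited values, -0.07 with array weights and -0.07 with the array position row as a block; that block gave 0.02 for Slc7a6 and 0.01 for Slc7a7. Array weights gave -0.10 for Slc43a3. The mean of a gene's probes gave -0.20 for Slc36a1, where the dimmer probe is missing on WT 3, 0.05 for Slc36a4 and -0.03 for Slc38a1. The replicate block by title number gave 0.10 for Slc7a11, 0.01 for Slc7a6 and 0.01 for Slc7a7, and that by the number in the file names 0.02 for Slc36a4 and -0.01 for Slc43a3; neither block changed a call. Unadjusted calls over all probes were 2623 with the title number as a block. Without both doubted arrays Slc43a3 was -0.23, Slc7a1 -0.25, Slc7a11 0.28, Slc7a6 0.09 and Slc7a7 0.07, and with the NK covariate Slc36a1 was -0.05 and Slc38a10 -0.01. With each array left out in turn, Slc36a1 ran from -0.03 to 0.17, Slc36a4 from -0.37 to 0.11, Slc38a10 from -0.04 to 0.15, Slc43a3 from -0.22 to 0.35, Slc7a1 from -0.27 to 0.23, Slc7a11 from -0.31 to 0.10, Slc7a6 from -0.18 to 0.03 and Slc7a7 from -0.14 to 0.02. Each of these changes in sign was of a difference not past the threshold, and the cause was not tested. Signal over background limits Slc7a2 most among the named genes tested, with 3 of 7 arrays well above it.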
